A study of Mus musculus with 3 samples.

Results

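The Notch pathway was described through 10 genes: the receptors Notch1, Notch2, Notch3 and Notch4, the ligands Jag1, Jag2, Dll1 and Dll4, and the target genes Hes1 and Hey1. They were taken by gene symbol from a table of 19381 genes, and all 10 were found. The data are bulk RNA sequencing of the proximal end of the mouse incisor, a tooth that grows throughout life from stem cells at that end. All 3 libraries belong to 1 group, DKO, with the genotype Gli1-CreER;Arid1afl/fl;Arid1bfl/fl. A Cre recombinase made active by tamoxifen is expressed under control of Gli1 and recombines floxed Arid1a and Arid1b, genes for DNA-binding subunits of the BAF chromatin remodeler. The mice were 1 month old, received 1.5 mg of tamoxifen per 10 g of body weight into the peritoneum, and were sampled 4 days after induction. Control mice were not analysed here, so every value describes DKO tissue and no effect of the deletion was measured. The Cre acts in Gli1-expressing cells, whose descendants inherit the deletion, and each library also holds RNA from cells outside that lineage. Nothing in the labels ties a library to its own animal, so every SD measures the spread between libraries, which may be technical.

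Notch receptors are single-pass membrane proteins that bind Jagged or Delta-like ligands on a neighbouring cell. Binding exposes the receptor to ADAM proteases and then to gamma-secretase, which frees its intracellular domain to enter the nucleus, join the DNA-binding protein RBPJ and Mastermind coactivators, and switch on genes such as those of the Hes and Hey repressor families. In teeth the pathway is known from the dental epithelium, from pulp mesenchyme and from blood vessels, where Notch4 and Dll4 are typical of endothelium and Notch3 of the mural cells around it.

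Values are given as deposited, in normalized units that were brought to the same upper quartile in all columns. Where 3 values are listed, they are those of replicates 1, 2 and 3. The library totals were 986401, 958773 and 966163 units. If the smallest value in a library stands for 1 read, they correspond to 33863066, 34900647 and 41477624 reads. That reading could not be settled, so no counting interval is given. For the order of genes and their shares among receptors, ligands or targets, levels were divided by exon length in kilobases (kb). The lengths were taken from the GENCODE annotation of the same genome build. Means set against a threshold or against all listed genes, and percents of marker sums, were not divided by length. Every one of the 10 members had a mean of at least 10 units, a level reached by 53.6% of all listed genes. Of the tooth mesenchyme markers, all 6 exceeded a mean of 10, with Prrx1 at 559, 675 and 623, and their summed level was 2539 to 2872. All 8 dental epithelium and all 10 endothelial markers also exceeded 10, so this level does not test the tissue label. Other cell types were present in the same RNA, as their markers below show. In bulk RNA, fewer cells of a type and less RNA per cell cannot be told apart.

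The 4 receptor genes spanned a wide range. Notch2 was the most abundant receptor per kb of exon and Notch4 the least, and their promoters are shown because they stand at the ends of that range. The Notch3 promoter is shown beside them as the second receptor in the order. The sequences are from RefSeq (GRCm38.p6), 5′ to 3′ on the strand of the gene. They run up to the RefSeq start of transcription and leave out any base inside an annotated exon. Capitals mark the GC box GGGCGG, the core bound by Sp-family factors, on either strand.
Notch2 (chr3:98013288-98013526, plus strand): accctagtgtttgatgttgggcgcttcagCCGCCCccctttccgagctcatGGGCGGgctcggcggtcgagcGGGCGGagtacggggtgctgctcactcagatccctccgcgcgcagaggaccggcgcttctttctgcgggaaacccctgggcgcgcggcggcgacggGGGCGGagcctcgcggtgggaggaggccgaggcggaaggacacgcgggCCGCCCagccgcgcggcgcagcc
Notch3 (chr17:32166891-32167140, minus strand): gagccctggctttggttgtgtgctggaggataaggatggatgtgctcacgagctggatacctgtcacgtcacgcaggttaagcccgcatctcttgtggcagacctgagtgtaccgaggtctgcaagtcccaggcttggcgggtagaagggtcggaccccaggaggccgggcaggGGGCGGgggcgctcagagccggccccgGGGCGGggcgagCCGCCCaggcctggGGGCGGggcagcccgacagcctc
Notch4 (chr17:34564045-34564267, plus strand): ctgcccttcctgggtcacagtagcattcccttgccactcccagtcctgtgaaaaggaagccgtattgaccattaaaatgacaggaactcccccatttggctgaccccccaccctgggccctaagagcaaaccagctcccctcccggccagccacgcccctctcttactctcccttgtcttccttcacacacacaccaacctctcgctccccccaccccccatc

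In the 250 bases before the start, Notch2 had 5 GC boxes and 34 CpG dinucleotides, Notch3 had 4 and 17, and Notch1 had 5 and 16. The Notch4 window had no GC box and 4 CpG. A GC box was present in 32.7% of 32851 mouse promoter windows of the same length, and the median window held 6 CpG. Promoter entries were matched for 8 members in 9 windows, since Dll1 has more than 1 start. Hes1 and Hey1 had no entry. GC boxes were also found for Jag2 (5) and Dll4 (2), and not for Jag1 or in either window of Dll1. All these counts take the whole window, including bases inside annotated exons. The Jag2 window begins inside an exon, and the exon-free run from the far end was 126 bases for Jag1 and 97 for 1 window of Dll1. The RBPJ core TGGGAA, searched on both strands, was in 21.6% of all windows and the E-box CACGTG in 6.02%, and neither set of letters was in the windows of the 8 members. A match or its absence describes these letters in this window only.

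Notch2 (chr3:98013527-98150361, plus strand, 34 exon blocks) was listed at 291, 268 and 328 units (296 ± 30.2, SD, n = 3). Its values were lowest in replicate 2 and highest in replicate 3. It is the receptor with a broad expression in mesenchymal tissues. Without division by length, which favours long genes, 97.8% of all listed genes had a lower mean. Notch3 (chr17:32120820-32166852, minus strand, 33 exon blocks), the receptor typical of vascular smooth muscle and pericytes, stood at 80.7, 87.2 and 105 (91.0 ± 12.6). Replicate 3 lay above both other libraries, which were close to each other. Notch1 (chr2:26457903-26516663, minus strand, 40 exon blocks), known in the tooth from the stratum intermedium next to the enamel-forming cells and elsewhere from endothelium, stood at 42.5, 43.4 and 49.6 (45.2 ± 3.91). Replicate 3 was again the highest. Notch4 (chr17:34564268-34588503, plus strand, 31 exon blocks), the endothelial receptor, had the lowest values, 20.7, 18.4 and 25.4 (21.5 ± 3.58). It also had the widest relative spread of the 10 members, with a coefficient of variation (SD as a percent of the mean) of 16.7%.

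Per kb of exon, the receptors stood at 27.4 ± 2.80 for Notch2, 11.2 ± 1.56 for Notch3, 3.17 ± 0.275 for Notch1 and 2.67 ± 0.444 for Notch4. Notch2 therefore made up 63.5%, 60.7% and 60.8% of the summed receptor level per kb in the 3 libraries, and Notch3 23.5%, 26.3% and 25.9%. Notch1 contributed 7.14% ± 0.255 and Notch4 5.96% ± 0.375. Each share had a smaller relative spread between libraries than the level of the same gene, and all 4 levels were highest in replicate 3.

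**Figure D1:**
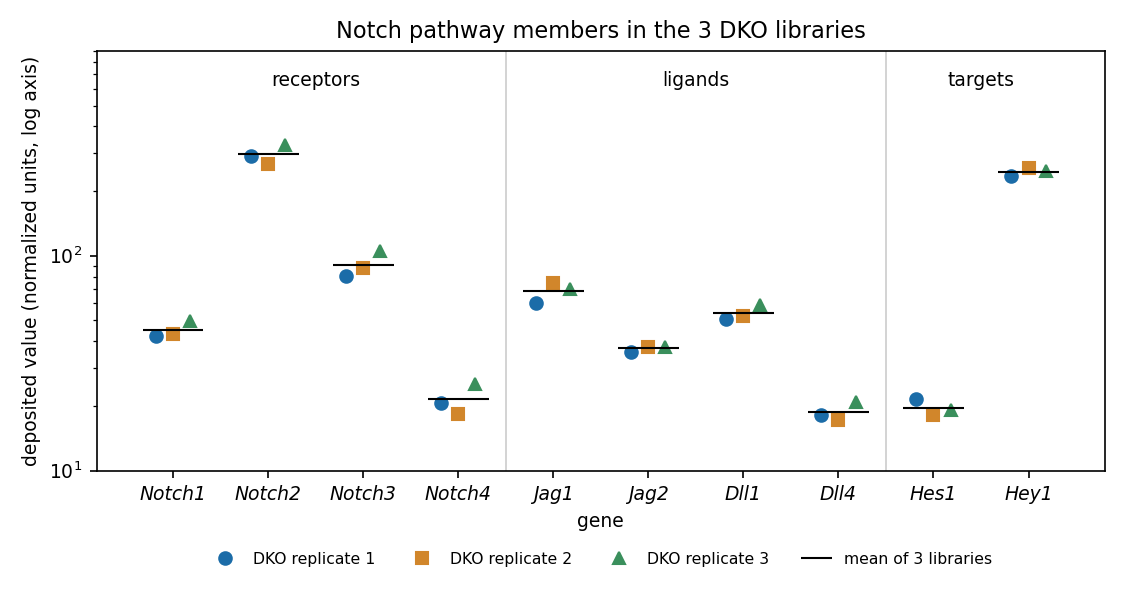
Deposited value of each member (normalized units, log axis) in the 3 DKO libraries; symbols are libraries and lines their means. Notch2 and Hey1 sit highest, at means of 296 and 246, and each gene's 3 libraries lie close together; different genes are not comparable here because values are not divided by length.

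Both Jagged and both Delta-like ligands were measured well above the lowest values of the table. Jag1 (chr2:137081456-137116644, minus strand, 25 exon blocks), a ligand of vessels, epithelium and mesenchyme, was listed at 60.1, 75.0 and 69.8 (68.3 ± 7.58), lowest in replicate 1. Jag2 (chr12:112907819-112929776, minus strand, 24 exon blocks), a ligand of the dental epithelium, stood at 35.8, 37.6 and 37.7 (37.0 ± 1.09). The 3 libraries were nearly equal for Jag2, whose coefficient of variation of 2.93% was the smallest among the members. Dll1 (chr17:15367354-15376872, minus strand, 12 exon blocks), the Delta-like ligand known from segmentation and progenitor maintenance, stood at 50.9, 52.2 and 59.2 (54.1 ± 4.44). Dll4 (chr2:119325784-119335962, plus strand, 11 exon blocks), the ligand of arterial and sprouting endothelium, stood at 18.2, 17.2 and 20.8 (18.7 ± 1.84). Both Delta-like ligands were highest in replicate 3, by a small margin.

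Divided by exon length, Dll1 was at 12.8 ± 1.05 per kb, Jag1 at 11.7 ± 1.30, Jag2 at 5.32 ± 0.156 and Dll4 at 4.86 ± 0.478. Dll1 and Jag1 shared most of the ligand signal, with 36.9% ± 1.51 and 33.7% ± 2.55 of the sum. Jag2 made up 15.3% ± 0.617 and Dll4 14.0% ± 1.10. No single ligand led the way Notch2 led the receptors. The summed receptor level per kb of exon exceeded the summed ligand level 1.32-, 1.17- and 1.36-fold in the 3 libraries. This excess depends on the length used. Per kb of coding length, Notch2, Notch3, Notch1 and Notch4 were at 39.9, 13.1, 5.95 and 3.65. Dll1, Jag1, Jag2 and Dll4 were at 25.0, 18.7, 9.90 and 9.10, so the receptor and ligand sums were then nearly equal.

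The target genes were far apart. Hey1 (chr3:8663359-8667256, minus strand, 3 exon blocks), a basic helix-loop-helix repressor induced by Notch in vessels and by BMP signalling in skeletal cells, was listed at 235, 256 and 247 (246 ± 10.2). Hes1 (chr16:30064384-30067796, plus strand, 7 exon blocks), the repressor of the same class whose messenger RNA is short-lived, stood at 21.6, 18.2 and 19.1 (19.6 ± 1.72). Hes1 was the single member highest in replicate 1. Per kb the levels were 75.3 ± 3.14 for Hey1 and 9.64 ± 0.844 for Hes1, with no overlap between their libraries. Among 6 measured genes of the Hes and Hey families, Hey1 made up 79.1%, 81.1% and 80.3% of the summed level per kb and Hes1 11.6%, 9.27% and 9.97%. Hey2 and Heyl, relatives of Hey1 that are expressed in heart and vessels, contributed 2.50% ± 0.190 and 4.37% ± 0.653, Hes6 2.52% ± 0.458 and Hes7 0.178% ± 0.0364. Hes5, the other classical Notch target of this family, was not analysed here.

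**Figure D2:**
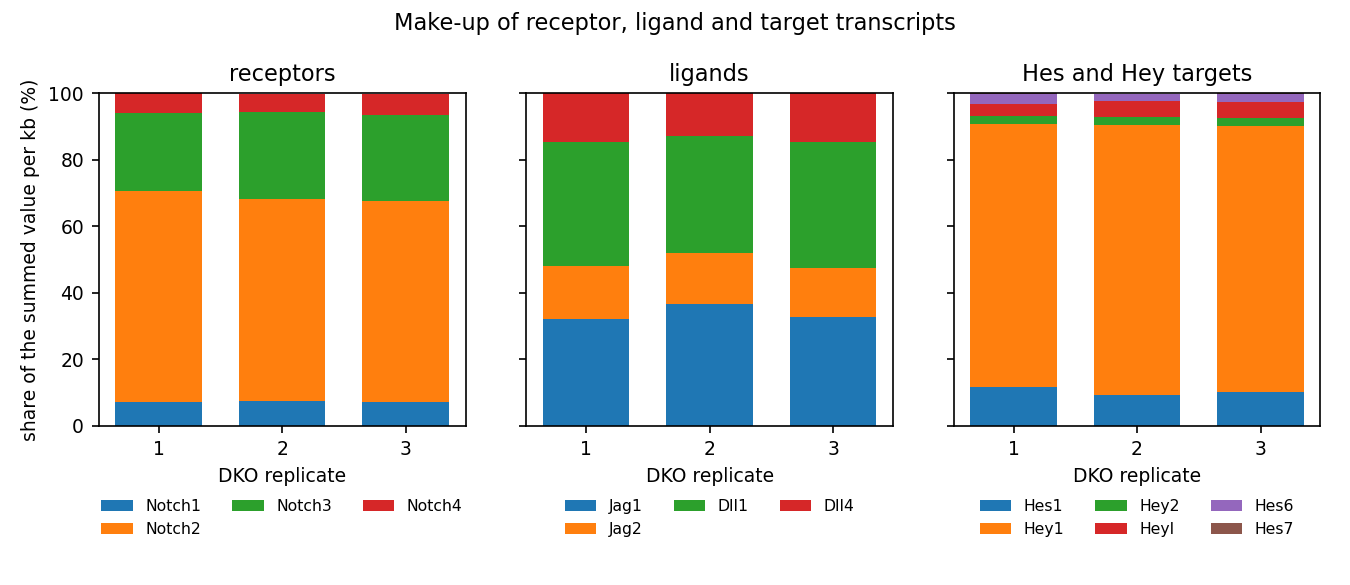
Share of each gene (%) in the summed deposited value per kb of exon for the receptors, the ligands and the measured Hes and Hey genes, with 1 bar per DKO library. Notch2 takes 60.7% to 63.5% of the receptor sum and Hey1 79.1% to 81.1% of the target sum, whereas Dll1 and Jag1 each take about a similar part of the ligand sum; Hes7, at under 1%, is too thin to see.

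The order of the members per kb, from highest to lowest, was Hey1, Notch2, Dll1, Jag1, Notch3, Hes1, Jag2, Dll4, Notch1 and Notch4, and spanned 27.3-fold. Hey1 exceeded Notch2 by a log2 difference of 1.46 ± 0.18 and Notch2 exceeded Dll1 by 1.07 ± 0.08, each in 3 of 3 libraries and with no overlap of libraries. Dll1, Jag1, Notch3 and Hes1 followed, each not separated from the next beyond the spread: the differences were 0.14 ± 0.16, 0.07 ± 0.18 and 0.16 ± 0.27, and each had the opposite sign in 1 library. Hes1 lay above Jag2 by 0.89 ± 0.16 without overlap. Jag2 and Dll4 were again not separated (0.10 ± 0.13). Dll4 exceeded Notch1 by 0.66 ± 0.05 without overlap, and Notch1 exceeded Notch4 by 0.23 ± 0.13 in 3 of 3 libraries although the ranges of the genes overlapped. Of the 9 neighbouring pairs, 4 thus had libraries that did not overlap. An exact permutation test that flips signs within libraries, two-sided, gave p = 0.25 for the 5 pairs with a constant sign, which is the smallest value that n = 3 allows (adjusted p = 0.45 by the Benjamini-Hochberg method over 9 pairs), and 0.50 to 0.75 for the others. The places of Hey1, Notch2 and Dll1 at the top and of Notch1 and Notch4 at the bottom were the same when coding length or the length of the main mRNA was used, whereas Hes1 then moved above Jag1 and Notch3. Dll4 exceeded Notch1 by 0.66 with coding length but by only 0.11 with mRNA length, so the separation of these genes depends on the length used.

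**Figure D3:**
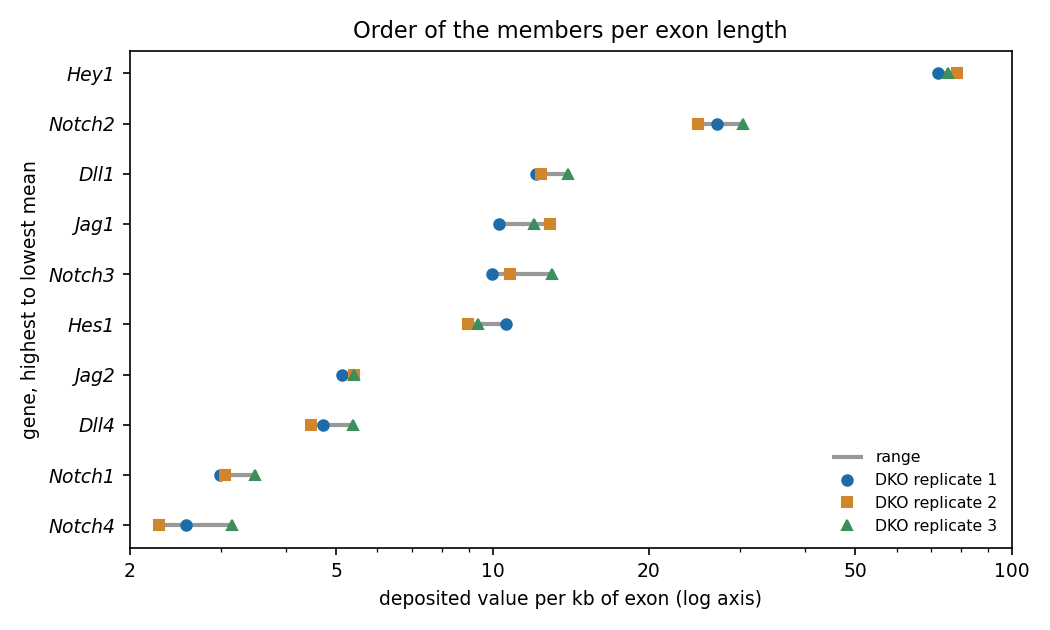
Deposited value per kb of exon (log axis) for the 10 members, ordered by mean; symbols are the 3 DKO libraries and grey bars their range. Hey1 and Notch2 stand clear of the rest, from Dll1 to Jag1, Notch3 and Hes1 each gene overlaps the next, and Notch1 and Notch4 are lowest at means of 3.17 and 2.67 per kb.

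Overlapping genes touched 5 of the 10 members. Exons of Notch1, Notch3, Dll1 and Dll4 overlap a transcript of the opposite strand and those of Notch2 an unconfirmed transcript of the same strand. The strand setting of the counting is not known, so reads there cannot be assigned with certainty. The overlapping genes that were listed had means of at most 0.961 units. The largest share of a member's exons, 20.5% (867 bases) of those of Dll1, overlaps the long noncoding RNA A930024N18Rik, a gene not analysed here. A share of bases is not a share of reads, so how far this affects the Dll1 value is not known. The place of Dll1 in the order and its share of the ligands carry the same uncertainty.

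The members differed little between libraries, though slightly more than the median gene. The highest library exceeded the lowest by at least 1.5-fold (on value + 1) in 0 of 10 members, against 5.68% of the 10388 genes whose mean reached 10, a share that fell to 1.58% without replicate 1. Leaving a library out can only lower a gene's ratio. At either share fewer than 1 of 10 members would be called, so the count of 0 does not set the members apart. The median ratio of highest to lowest library was 1.18 for the members and 1.14 for those genes, and the median coefficient of variation 9.29% and 7.20%. Among the members the coefficient of variation ran from 2.93% for Jag2 and 4.17% for Hey1 to 13.9% for Notch3 and 16.7% for Notch4.

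Replicate 3 was the highest library for 7 of 10 members, while 34.6% of the tested genes were highest there. These were the 4 receptors, Jag2, Dll1 and Dll4. Jag1 and Hey1 were highest in replicate 2. Jag1 and Hey1 thus made 2 of 10 against 34.2% of the tested genes, and Hes1, highest in replicate 1, 1 of 10 against 31.2%. None of the members was lowest in replicate 3, a place held by 34.2% of the tested genes. Replicate 1 was lowest for 6 members (38.1% of the tested genes) and replicate 2 for 4 (27.8%). With libraries rescaled to equal totals Jag2 was no longer highest in replicate 3 and 6 members remained.

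Of 6 summed marker lists for cell types of the tooth, 5 also peaked in replicate 3: tooth mesenchyme, odontoblast, endothelial, mural and macrophage. Of all tested genes, 34.6% were highest there. The glia sum also peaked there, the arterial and neutrophil sums in replicate 2 and the interferon-stimulated sum in replicate 1. The odontoblast sum rests mostly on Col1a1 (9950, 4719 and 13715). Of the 4 odontoblast markers above a mean of 10, 2 were highest in replicate 1 and 2 in replicate 3. The peak in replicate 3 is thus not particular to vessel markers. The 10 endothelial markers, all above a mean of 10, summed to 443, 435 and 574, and 8 of the 10 were highest in replicate 3, with Pecam1 at 66.6, 69.2 and 84.4 and Cdh5 at 76.0, 81.2 and 107. The 5 arterial markers, 2 of them above a mean of 10, summed to 108, 118 and 115. The 8 mural markers summed to 861, 836 and 951, and 4 of the 7 above a mean of 10 were highest in replicate 3. Rgs5, a pericyte gene, was at 515, 477 and 570.5, whereas Acta2, the smooth muscle actin, was highest in replicate 2 (36.0, 57.3 and 43.0). No marker was listed at 0. Set against the endothelial sum of the same library, Notch4 was at 4.68%, 4.22% and 4.43%, and its coefficient of variation was 5.23% on this scale against 16.7% as deposited. Dll4 was at 4.11%, 3.96% and 3.62% of that sum, with a coefficient of variation of 6.38% against 9.82%. Notch3 was at 9.37%, 10.4% and 11.0% of the mural sum (coefficient of variation 8.24% against 13.9%) and at 18.2%, 20.0% and 18.3% of the endothelial sum (5.35%). For Notch1 and Dll1 the change against the endothelial sum was small, from 8.66% to 7.18% and from 8.21% to 7.65%. Hey1 went the other way: it was at 27.3%, 30.6% and 25.9% of the mural sum, and its coefficient of variation was 8.60% on that scale against 4.17% as deposited. These ratios were chosen after the values had been seen, and the part of vessel content in the library differences was not tested.

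Dental epithelium markers peaked in replicate 2. The 8 markers summed to 798, 1271 and 964, with 7 of 8 highest in replicate 2 and Krt14 at 123, 191 and 154. Jag2 did not follow them: as a percent of that sum it was at 4.48%, 2.96% and 3.91%, with a coefficient of variation of 20.3% against 2.93% for Jag2 itself. Jag1, also highest in replicate 2, was at 7.53%, 5.90% and 7.25% of the epithelial sum (coefficient of variation 12.6% against 11.1% as deposited). The 6 macrophage markers summed to 756, 1030 and 1073, all lowest in replicate 1, and Notch2 was at 38.5%, 26.1% and 30.6% of that sum. Against the summed tooth mesenchyme markers Notch2 was at 11.5%, 10.0% and 11.4%. The coefficient of variation of Notch2 was 10.2% as deposited, 19.9% against the macrophage sum and 7.40% against the mesenchyme sum. A smaller spread was thus not particular to vessel sums. Odontoblast markers summed to 15658, 5981 and 17952, a 3.00-fold range that no member showed. The 8 interferon-stimulated genes summed to 1062, 197 and 201, so replicate 1 stood apart for them, and Hes1, the member highest in that library, differed 1.17-fold between libraries. The part of these cell types in the members' values was not tested.

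**Figure D4:**
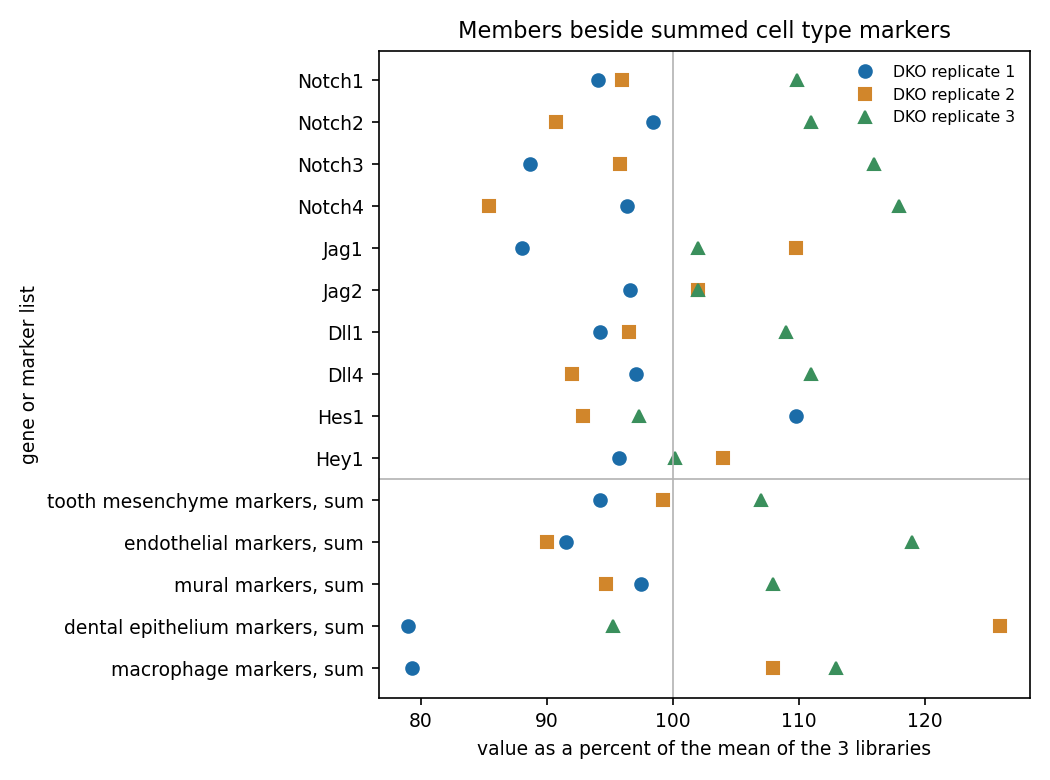
Value in each DKO library as a percent of the gene's or marker sum's mean over the 3 libraries, for the 10 members and 5 summed marker lists. Replicate 3 lies to the right for the receptors, Dll1 and Dll4 and for 4 of the 5 sums shown, tooth mesenchyme (107%), endothelial (119%), mural (108%) and macrophage (113%), and replicate 2 for Jag1, Hey1 and the epithelial sum (126%).

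The rest of the pathway was largely expressed. Of 52 further genes of the pathway, 48 were listed and 39 of these had a mean of at least 10, which is 81.2% against 53.6% of all listed genes. The 4 others, Dll3, Hes2, Hes3 and Hes5, were not analysed here and do not enter the 81.2%. The 53.6% also covers noncoding genes, so these sets are unlike. The median library ratio of the 39 was 1.12, against 1.14 for all genes with a mean of at least 10. Of the 39, 2 reached 1.5, Dtx3l and Dtx4, against 5.68% of those genes. This count does not set the pathway apart.

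Enzymes that add sugars to the receptor were present at moderate levels. Pofut1, which adds O-fucose to the receptor's repeats, was at 85.3 ± 3.17 units (8.61 per kb), and Poglut1, which adds O-glucose, at 76.9 ± 4.01 (16.5 per kb). Of the Fringe enzymes, which extend O-fucose and shift the preference between Delta-like and Jagged ligands, Lfng was at 25.3, 23.5 and 19.4 and Rfng at 18.6, 20.4 and 22.1. Per kb these were 9.07 ± 1.21 and 8.17 ± 0.709, and did not differ beyond their spread, while Mfng was at 1.40 ± 0.316.

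Some genes of the proteases that cut the receptor were among the stronger ones of the pathway, and others were low. Adam10, which makes the ligand-induced cut outside the membrane, stood at 378, 418 and 390.1 units, or 80.5 ± 4.18 per kb, close to Hey1. Adam17 was at 15.4 ± 1.85 per kb. Furin, which cuts the receptor during its maturation, stood at 245 ± 17.2 units. Of the gamma-secretase subunits reported here, nicastrin, from Ncstn, was at 126 ± 5.52 units and 31.6 ± 1.39 per kb, and Aph1a and Psenen were both at 24.6 per kb. Psen2 was lower, at 11.4 ± 0.226 units and 2.64 ± 0.0521 per kb. Aph1b (91.3 ± 8.25 units) and Aph1c (4.78 ± 0.155) are close copies and may share reads.

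Ligand activation needs ubiquitin ligases in the sending cell. Mib1, the main one, was at 383, 374 and 258 units, lowest in replicate 3, with a library ratio of 1.49. It thus went the opposite way to Dll1 and Dll4. Mib2 was at 28.0, 26.8 and 29.8, and Neurl1a and Neurl1b had means of 3.08 and 9.77. Of the ligand-like proteins, Dlk1, which lacks the receptor-binding domain of true ligands, was at 143, 117 and 166 (25.1 ± 4.33 per kb). Dner was at 15.2 ± 2.50 units and Dlk2 at 1.01 ± 0.417.

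Among regulators of receptor trafficking and turnover, Numb, an inhibitor that directs receptors into endocytosis, was at 42.9, 43.5 and 42.7, with a coefficient of variation of 0.929%. Itch, a ubiquitin ligase, was at 140.3 ± 7.44, Dtx3 at 71.6 ± 6.82 and Fbxw7, which marks the intracellular domain for degradation, at 41.9 ± 2.51. Dtx3l was at 98.4, 55.6 and 52.3 and followed the interferon-stimulated genes in being highest in replicate 1. Dtx4 was at 10.6, 16.4 and 19.7, lowest in replicate 1. The cause of these orders was not tested.

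In the nucleus, Rbpj, through which the intracellular domain reaches DNA, was at 139, 144 and 144 units (142 ± 3.06). Per kb it was at 11.2 ± 0.240, near Notch3, and its coefficient of variation was 2.15%. The Mastermind coactivators Maml1, Maml2 and Maml3 were at 9.65 ± 0.959, 5.81 ± 0.0498 and 3.05 ± 0.397 per kb. Ncor1, a corepressor, was at 279 ± 11.9 units, and Spen, a corepressor that RBPJ recruits without Notch, at 129.9 ± 7.43. Rbpjl, the relative of Rbpj in the pancreas, was low, at 4.81, 1.98 and 2.26. Tle3, a Groucho corepressor used by Hes proteins, was at 120.2 ± 9.87.

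The other targets stood far below Hey1, and the highest of them near Hes1. Nrarp, a feedback inhibitor induced by Notch, was at 19.6, 19.2 and 23.2 units, or 8.0 ± 0.85 per kb, near Hes1. Heyl was at 17.0, 22.7 and 23.5 and Hey2 at 10.4, 12 and 9.99. Nrarp and Heyl were highest in replicate 3, as were 7 of 10 members and 34.6% of the tested genes. Hey2 was highest in replicate 2, as were Jag1, Hey1 and 34.2% of the tested genes. Per kb, Heyl (4.12 ± 0.697) and Hey2 (2.35 ± 0.224) stood far below Hey1. Of the 3 other targets with a mean of at least 10, none had a library ratio of 1.5.

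**Figure D5:**
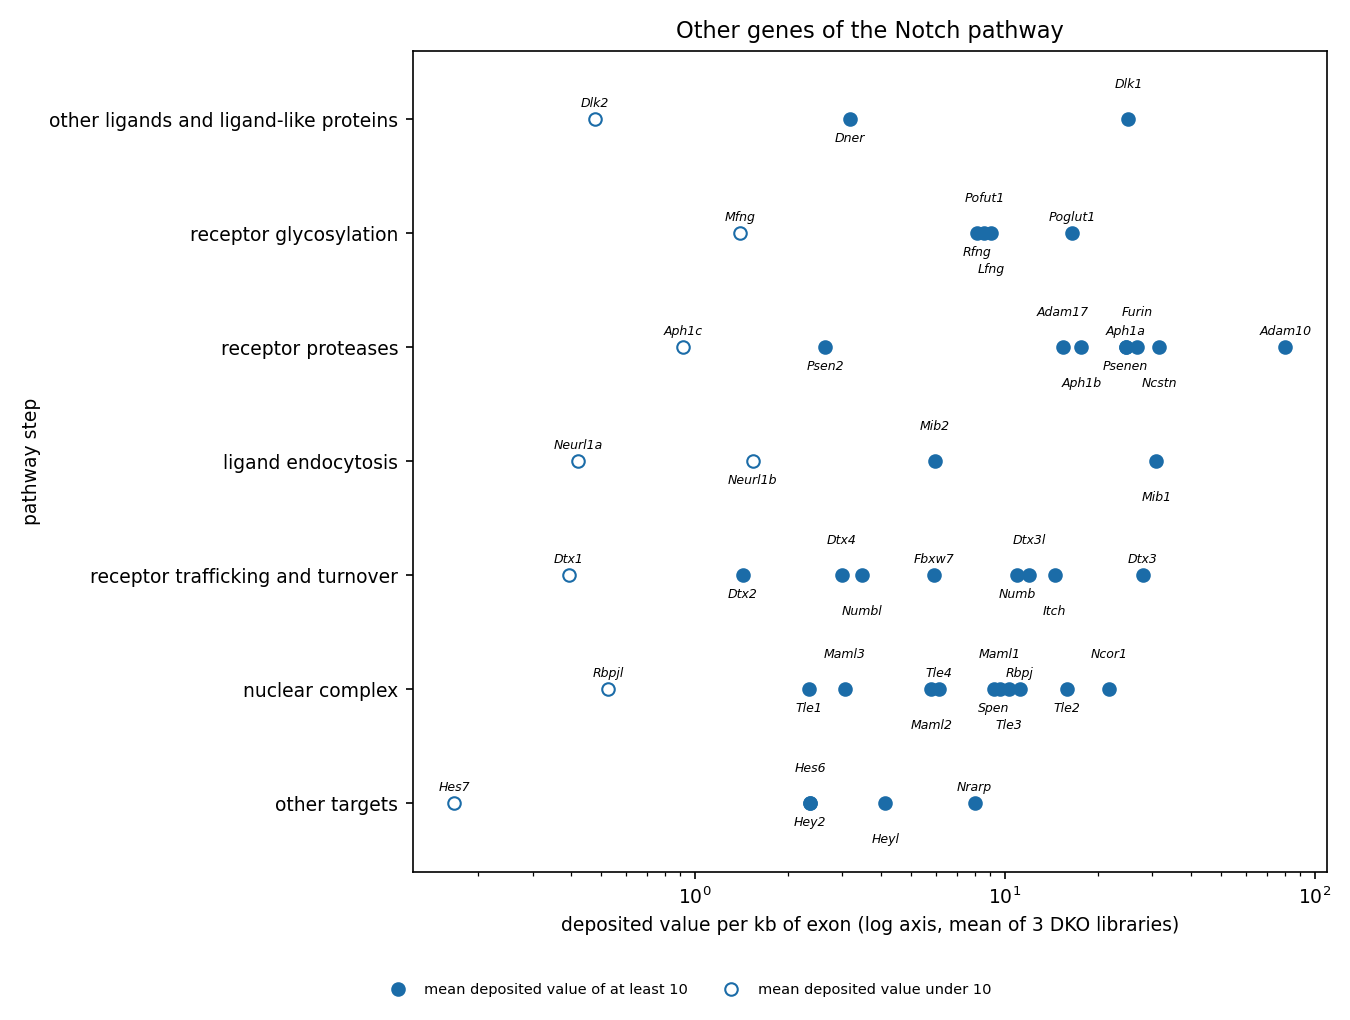
Mean deposited value per kb of exon (log axis) over the 3 DKO libraries for 46 further pathway genes, 1 row for each step; open circles have a mean deposited value under 10, and Hes6 (open) lies behind Hey2. Adam10 stands farthest to the right at 80.5 per kb, and Hes7, Dtx1, Neurl1a, Dlk2 and Rbpjl to the left.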

How the data were processed

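RNA was sequenced from 3 libraries of incisor mesenchyme, all in the group DKO, which also held markers of other cell types. The authors deposited 1 table of normalized gene-level signal. Reads were aligned with TopHat2 2.0.8 to mm10, per the submitters' processing notes; the counter, the annotation, the strand setting and any filter were not stated in any source used. The upper quartile was 44.7 in each column, as after upper-quartile scaling. Each column was tied to its library by the library number in its name. Of values up to 20 times the smallest, 82.4% to 82.6% were whole multiples of it to a tolerance of 0.1, so whole reads were not recovered and no count model was used. No value was 0.

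Exon lengths (the union of all exons) and positions came from GENCODE M21 (GRCm38), in which 97.8% of genes matched by symbol and chromosome. Logarithms were log2(value + 1), and for the order of members log2 of exon length in kb was subtracted. Neighbours in that order were compared with an exact sign-flip permutation test within libraries. The share of genes with a library ratio of at least 1.5 was taken over those whose mean reached 10, and this count was tested on simulated data. Named genes were all members, the 3 highest of each pathway list by mean, list genes with a ratio of at least 1.5, and a fixed set of core pathway genes and markers. Others (Rfng, Mfng, Adam17, Psen2, Psenen, Aph1a, Aph1b, Aph1c, Neurl1a, Numb, Fbxw7, Maml2, Maml3, Spen, Tle3, Rbpjl, Hes6, Hes7, Dtx1) were chosen after their values were seen. Some list genes enter the counts and are not reported here by name. The members and lists were chosen with earlier results of these data known. Alternatives changed the pseudocount, filter, scaling, length and libraries. Python 3.11.15, NumPy 2.4.6, pandas 2.3.3 and matplotlib 3.10.9 were used. The precision of a low value could not be given, since depth is not known.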

Additional observations from a re-analysis of the deposited data

How the results depend on the processing

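The means of single members moved by less than 1 SD in all 30 values under other scalings, whose divisors lay between 0.988 and 1.02. They also did so in the 30 values with a library left out. With 3 libraries a mean cannot move by 1 SD in that way, so those 30 values test nothing. Of the 9 neighbouring pairs, 4 kept their direction without division by exon length, where Hey1 minus Notch2 was -0.26, Dll1 minus Jag1 -0.33, Jag1 minus Notch3 -0.41, Hes1 minus Jag2 -0.88 and Dll4 minus Notch1 -1.23 on the log2 scale, since this comparison leaves length in. With a pseudocount of 10, which compresses low values, Notch3 minus Hes1 was -0.23, Jag2 minus Dll4 -0.14 and Notch1 minus Notch4 -0.01. Notch3 minus Hes1 was -0.89 with coding length and -0.30 with the length of the mRNA that holds the longest coding sequence, both chosen after seeing the data, and Jag1 minus Notch3 ranged from -0.03 (without replicate 2) to 0.16 (without replicate 3). With a library left out, 8 to 9 pairs kept their direction. The members' median library ratio of 1.18 was 1.08 to 1.15 with a library left out, lowest without replicate 3. The 590 genes with a ratio of at least 1.5 became 1958 when weak genes were kept, 82 when means had to reach 100, and 325 under the pseudocount of 10. Omitting 1 library gave 163 to 394 (163 without replicate 1, 372 without replicate 3). Among the members 0 of 10 reached 1.5 under any of the 7 alternatives run, which does not set them apart from other genes. Leaving a library out or raising the pseudocount can only lower a gene's ratio, so those alternatives could not have raised this count. At a threshold of 100, 12 of the 48 pathway genes were above it instead of 39, while 2105 of all 19381 listed genes had a mean of at least 100. Omitting 1 library at the threshold of 10 gave 38 to 39. The planned division by coding length from a protein table was not run. No paired analysis was possible because the libraries form 1 group. Values near 1 are the least certain, since depth is not known.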
